A study of Mus musculus with 4 samples.

Results

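Tubb3, Stmn2, Map1b and Gap43, 4 of the 383 genes of the MERFISH panel, were followed through the cell classes of coronal striatal sections. The 4 were chosen by name, as genes of the neuronal cytoskeleton and of neurite growth, and all 4 were measured in every section. MERFISH is an imaging method that counts single transcripts of a gene panel in each cell of a tissue slice. Frozen sections came from C57BL/6NTac mice, the strain given in the study's methods, 2 taken at an age of 2 months (young) and 2 at 18 months (aged), and the labels name no transgene or treatment. The sections are called Young 1, Young 2, Aged 1 and Aged 2. The labels do not say whether the sections of an age came from separate mice, so the p-values measure the spread between these sections. After the study's filters 281824 of 320663 cells remained, with a median of 400, 325, 215 and 293 transcripts per cell in Young 1, Young 2, Aged 1 and Aged 2. The 2 aged sections thus held fewer transcripts per cell. For this reason levels are given as transcripts of a gene per 10000 transcripts of the class, summed over its cells in a section. Map1b was the most often counted of the 4, with 3733844 transcripts and rank 5 in the panel. Stmn2 held 1350613 transcripts (rank 19), Gap43 479574 (rank 65) and Tubb3 275377 (rank 107). Each gene has its own probes, so levels are compared between classes and not between genes.

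Tubb3 encodes the beta-III tubulin that neurons build into microtubules from the time they are born. Stmn2 encodes stathmin-2, which binds tubulin and keeps microtubules of growing and regenerating axons dynamic. Map1b encodes a microtubule-associated protein that is abundant while axons and dendrites extend. Gap43 encodes a membrane protein of growth cones and of presynaptic endings that remain plastic in the adult. In the adult mouse forebrain new neurons are still born in the subventricular zone beside the striatum, where migrating neuroblasts carry doublecortin (Dcx) and the transcription factors Sox4 and Sox11. Most striatal neurons are medium spiny neurons (MSNs), of which one population carries the dopamine receptor gene Drd1 and the other Drd2.

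In the RefSeq annotation of GRCm38.p6, Tubb3 lies on chromosome 8 from 123411553 to 123422015, Stmn2 on chromosome 3 from 8509527 to 8561604, Map1b on chromosome 13 from 99421464 to 99516602, and Gap43 on chromosome 16 from 42248552 to 42340651. The counts are per gene, so no exon or isoform can be told apart.

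Cell classes were rebuilt from markers, without the 4 genes and a list of 17 further cytoskeleton and growth genes, so that none of them defined a class. Named classes held 216111 cells (76.7% of those kept), while 40937 cells in clusters with markers of several lineages (14.5%) and 24776 cells without a clear set of markers (8.79%) were left out. The mature neurons were GABA neuron-like cells (Gad2, Slc32a1, Sst, Npy), D1 MSN-like and D2 MSN-like cells, and neurons without GABA or spiny markers. Of the last class only 10 to 14 cells per section lay in the striatum-like zone, where at least 40% of the cells within 150 µm were MSN-like, so class and place cannot be told apart for it. Most GABA neuron-like cells also lay outside this zone. Inside it were 624, 421, 295 and 383 of 6229, 6640, 5882 and 6874 in Young 1, Young 2, Aged 1 and Aged 2. Most MSN-like cells lay inside, so over whole sections place also differs between these 2 classes. A cluster at the ventricle split into neuroblast-like cells, Top2a-rich cells that also carried neuroblast genes, and Rassf9-rich cells, which are named by leading genes because no ependymal marker was among their top genes. The Rassf9-rich cells were grouped by the ependymal markers Rsph9, Riiad1 and Nme9. Relative to the highest subcluster, the median of these markers was 1.0 and 0.96, and that of the neuroblast markers 0.11 and 0.05. The summed level of 5 neuroblast markers (Dcx, Sox11, Sox4, Dlx6os1 and Ccnd2) was 1514 to 2163 in neuroblast-like cells, 1761 to 2275 in Top2a-rich cells and 121 to 346 in Rassf9-rich cells, against 40.9 to 49.7 in astrocyte-like cells.

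**Figure D1:**
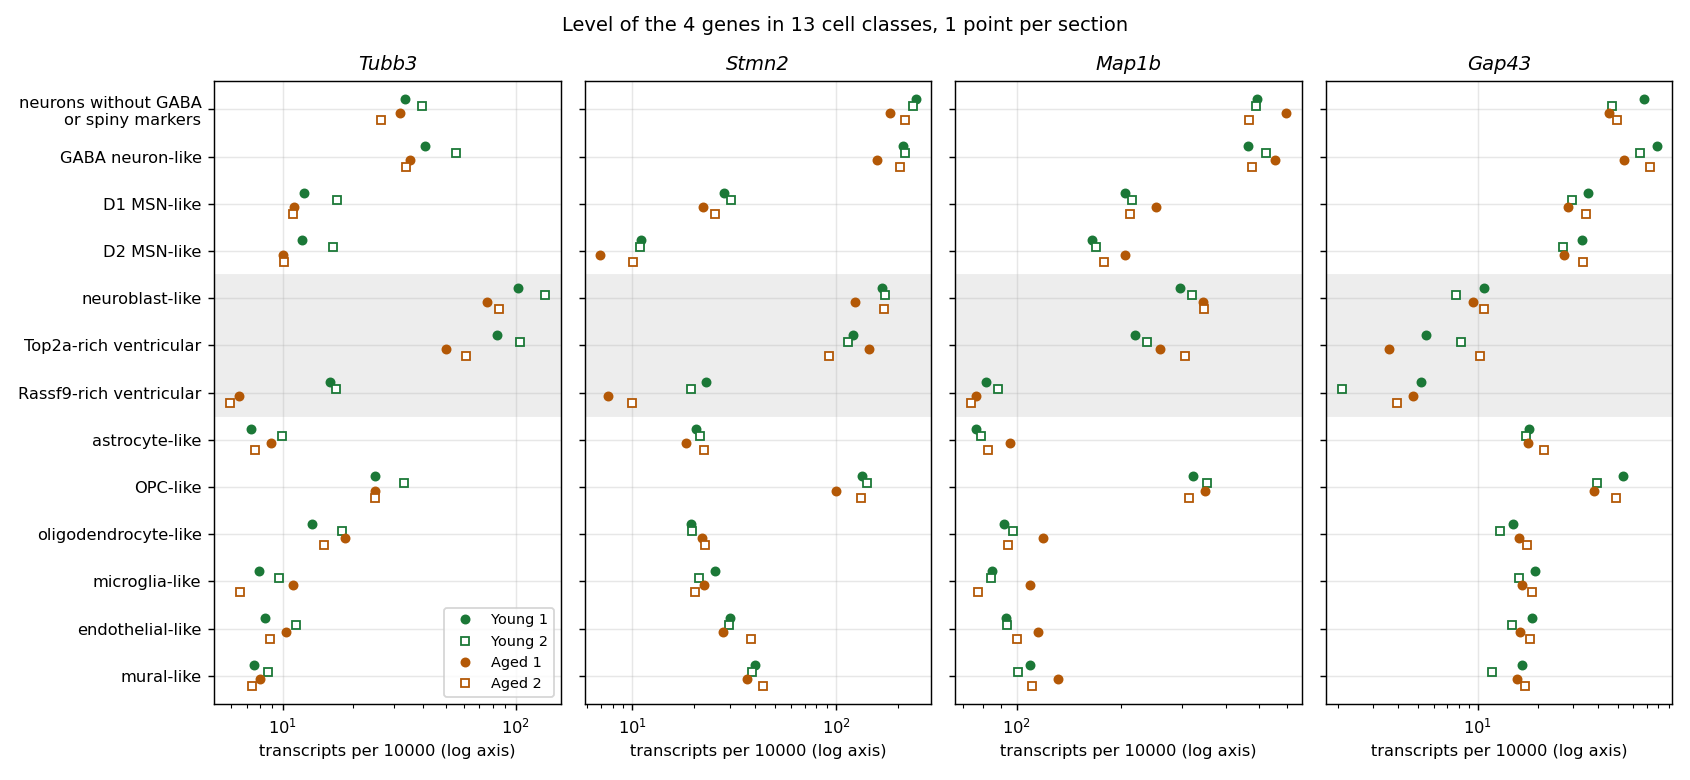
Transcripts per 10000 (log axis) of the 4 genes in 13 cell classes, with 1 point per section (green young, brown aged; filled section 1, open section 2) and the ventricular classes shaded. Tubb3 peaks in neuroblast-like cells (75.8 to 134), Stmn2 and Map1b in GABA neuron-like cells and neurons without GABA or spiny markers, and Gap43 is lowest in the 3 ventricular classes.

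The 4 genes did not share 1 order of classes. Tubb3 was highest in neuroblast-like cells, with levels of 102, 134, 75.8 and 85.1 in Young 1, Young 2, Aged 1 and Aged 2. Next came Top2a-rich ventricular cells at 83.0, 104, 50.4 and 61.2, in 16 to 155 cells per section, and the ranges of these 2 classes overlapped. In GABA neuron-like cells Tubb3 was at 40.9, 55.3, 35.0 and 34.0. All 4 neuroblast-like values thus lay above every value of a mature neuron class. Neurons without GABA or spiny markers had 33.4, 39.8, 31.7 and 26.5 and overlapped with the GABA neuron-like cells. MSNs had far less Tubb3, with 12.3, 17.1, 11.1 and 11.1 in D1 MSN-like cells and 12.1, 16.5, 10.1 and 10.1 in D2 MSN-like cells. These values overlapped with those of oligodendrocyte-like cells (13.3 to 18.5), and the lowest mean was in mural-like cells (7.85 ± 0.576, SD, n = 4 sections).

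Stmn2 parted the neuron classes most. Neurons without GABA or spiny markers had 245, 237, 183 and 217, and GABA neuron-like cells 213, 217, 159 and 205, so the ranges of these 2 classes overlapped. Neuroblast-like cells followed with 168, 174, 123 and 172. In D1 MSN-like cells the level was 28.1, 30.5, 22.2 and 25.4, within the range of endothelial-like cells (27.7 to 38.1) or below it. D2 MSN-like cells had 10.98, 10.88, 6.98 and 10.04, the lowest mean of the 13 classes. Inside the striatum-like zone, where all of these cells share their surroundings, Stmn2 was at 156 to 215 in GABA neuron-like cells, 20.8 to 27.1 in D1 MSN-like cells and 6.81 to 10.3 in D2 MSN-like cells. Glial and vascular cells, which should lack the gene, had 4.04 to 6.68 (astrocyte-like), 4.31 to 5.64 (microglia-like), 7.69 to 8.96 (endothelial-like) and 13.1 to 19.4 (mural-like) in the same zone. The Stmn2 level of D2 MSN-like cells thus overlapped with that of endothelial-like cells, and with that of oligodendrocyte-like cells (5.24 to 7.19). It lay above the astrocyte-like and microglia-like ranges and below the mural-like range. The level of D1 MSN-like cells lay above all of these glial and vascular classes in all 4 sections. OPC-like cells, a further glial class, had 27.7 to 46.6 in this zone, above the D1 MSN-like range.

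Map1b was highest in mature neurons outside the MSN classes. It stood at 492, 488, 598 and 467 in neurons without GABA or spiny markers, and at 465, 525, 557 and 476 in GABA neuron-like cells. Neuroblast-like cells had 295, 321, 343 and 347, below both of these classes in every section. D1 MSN-like cells had 205, 215, 251 and 212, and D2 MSN-like cells 165, 169, 205 and 178. The lowest mean was in Rassf9-rich ventricular cells (80.0 ± 6.49, SD, n = 4 sections), a range that overlapped with astrocyte-like cells (76.1 to 95.5).

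Gap43 ran against Tubb3 at the ventricle. GABA neuron-like cells had 78.5, 64.7, 54.0 and 72.4, and neurons without GABA or spiny markers 68.0, 46.7, 45.2 and 49.9. D1 MSN-like cells had 35.6, 29.6, 28.4 and 34.7 and D2 MSN-like cells 33.0, 26.7, 26.9 and 33.5, which overlapped. Neuroblast-like cells held 10.7, 7.75, 9.47 and 10.7, below every value of every neuron, glial and vascular class. Rassf9-rich ventricular cells were lower still, at 5.17, 2.08, 4.75 and 3.94.

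Neuroblast-like cells were compared with the mean of the mature neuron classes (GABA neuron-like, MSN-like and neurons without GABA or spiny markers), with the section as a block. In edgeR's quasi-likelihood test, with p-values adjusted over 383 genes by the Benjamini-Hochberg method, Tubb3 was 3.39-fold higher in neuroblast-like cells (log2 1.76, SE 0.14, adjusted p = 2.61e-16). Gap43 was lower (log2 -2.52, SE 0.15, adjusted p = 1.56e-20 by edgeR). Stmn2 was higher by 0.63 (SE 0.12, adjusted p = 1.5e-05 by edgeR) and Map1b lower, at -0.41 (SE 0.09, adjusted p = 0.000131). With 2 members higher and 2 lower, the background was 30% of genes higher and 33.9% lower, so these counts alone do not mark the 4 genes out. The median over all genes tested was -0.24 and moved between -1.07 and -0.07 with the scaling. Relative to that median, Tubb3 was 1.65 to 2.23 higher on the log2 scale over 12 settings, Stmn2 0.40 to 1.12 higher and Gap43 2.05 to 2.57 lower (-2.57 to -2.05). The sign of Stmn2 without this correction turned when counts were taken per cell volume (-0.21), at a clustering resolution of 1 (-0.35) and without Young replicate 2 (-0.20), and that of Map1b relative to the median ran from -0.54 to 0.09.

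The same comparison gave a mixed picture for the 17 cytoskeleton and growth genes. In neuroblast-like cells 9 of the 17 were higher and 6 lower, with a median of 0.29 against -0.24 over all genes. The highest were Marcksl1 (14.1-fold), which encodes an actin-regulating protein kinase C substrate, and Dpysl3 (10.98-fold), a collapsin response mediator of growing axons. The lowest were Plppr4 (log2 -3.86), a membrane protein of synapses, and Cntn1 (log2 -3.59), a cell adhesion molecule of axons. Of 20 genes used as a reference for neurons in general, 0 were higher and 18 lower in neuroblast-like cells by edgeR, led by Eno2 (log2 -4.94), the neuronal enolase. Their summed level was 772 to 880 in neuroblast-like cells and 3240 to 3378 in neurons without GABA or spiny markers. Tubb3 thus stood high in a class where most of the general neuronal genes stood low. Stmn2 in neuroblast-like cells lay below GABA neuron-like cells and neurons without GABA or spiny markers in every section, so its higher value against the mean of the mature classes rests on the low level in MSN-like cells.

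Between mature neurons, all 4 genes were higher in neurons without GABA or spiny markers than in MSN-like cells by edgeR, where the background was 34.7% of genes higher and 37.1% lower. Stmn2 differed most, 11.1-fold (log2 3.47, SE 0.13, adjusted p = 5.66e-29). Tubb3 was 2.13-fold (log2 1.09, SE 0.14) and Map1b 2.07-fold higher (log2 1.05, SE 0.09), and Gap43 1.36-fold (log2 0.44, SE 0.09, adjusted p = 5.94e-05 by edgeR). Relative to the median gene, Stmn2 lay at 3.42 to 3.56 over 12 settings, Tubb3 at 1.02 to 1.11, Map1b at 0.98 to 1.08 and Gap43 at 0.30 to 0.48, so Stmn2 stayed the largest and Gap43 the smallest of the 4. Of the 17 growth genes 9 were higher and 4 lower (median 0.32, against 0.03 over all genes), with the largest changes in Efnb3 (log2 -1.93), an ephrin that guides axons, Sema7a (3.17-fold), a semaphorin, and Tubb4b (2.75-fold), a beta-tubulin. Of the 20 reference genes 8 were higher and 6 lower (median 0.19), so neuronal genes in general did not differ one way.

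D1 and D2 MSN-like cells were set apart by 1 of the 4 genes. Stmn2 was 2.73-fold higher in D1 MSN-like cells (log2 1.45, SE 0.15, adjusted p = 5.62e-11 by edgeR), with 8.62% of genes higher and 9.92% lower in the background. Inside the striatum-like zone the difference was 2.63-fold (log2 1.39, SE 0.11, with 8.36% of genes higher and 12.5% lower), and D1 values exceeded D2 values in 4 of 4 sections. Inside that zone the D2 level overlapped with that of endothelial-like and oligodendrocyte-like cells, which should lack Stmn2, and exceeded the astrocyte-like and microglia-like ranges. Map1b was 1.22-fold higher in D1 MSN-like cells and missed the threshold (log2 0.28, SE 0.11, adjusted p = 0.063 by edgeR), but passed it in 7 of 12 settings and in the striatum-like zone (adjusted p = 0.017). Tubb3 differed by 0.07 (SE 0.16) and Gap43 by 0.08 (SE 0.11) on the log2 scale, with adjusted p of 0.832 and 0.718 by edgeR. None of the 17 growth genes passed the threshold here (0 higher and 0 lower by edgeR), and of the reference genes 3 were higher, among them Syp (log2 0.51), the synaptic vesicle protein synaptophysin.

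At 100 transcripts per cell, the share of cells with a Stmn2 transcript was 86.3, 86.2, 76.0 and 82.8% in neurons without GABA or spiny markers. It was 23.5, 24.5, 18.4 and 21.0% in D1 MSN-like cells and 8.71, 8.43, 5.83 and 7.47% in D2 MSN-like cells. Over the whole sections 17.5 to 23.3% of endothelial-like cells also had 1, so the D1 share is read only against the zone values above. In neuroblast-like cells, whose median depth was 67.5 to 75.0 transcripts, 62.4 to 68.2% of cells fell below 100 and were left out of this measure. Of the rest 49.9 to 70.4% had a Tubb3 transcript and 6.83 to 9.88% a Gap43 transcript, against 14.5 to 17.2% with Gap43 among astrocyte-like cells.

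The neuron classes were not uniform inside. Among neurons without GABA or spiny markers, cells led by Ptgs2 and Pcsk2 had Gap43 at 73.2, 61.0, 70.3 and 66.3, and cells led by Rorb, a transcription factor of cortical layer IV, had 47.8, 32.0, 34.8 and 32.7. The 2 sets did not overlap in Gap43, while their Tubb3 levels did (29.4 to 42.6 and 25.1 to 37.5). Among GABA neuron-like cells, those led by Ano1 and Gad2 had more Gap43 (99.7, 90.8, 84.3 and 96.6) than those led by Elavl2 and Sst (68.2, 54.2, 45.3 and 63.1). They had less Map1b, at 360 to 428 against 518 to 628. The shares of these clusters differed between sections: the Ptgs2-led cells were 53.0% of their class in Young 1 and 8.9% in Aged 1. These clusters were drawn from the same cells, so the values are given without a test.

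Across the 13 classes, the panel genes with the pattern most like Tubb3 were Ly6h (Pearson r = 0.889), Sirt6 (0.882) and Dcx (0.879). For Stmn2 they were Elavl2 (0.949), Gng3 (0.858) and Ly6h (0.791), and for Map1b Gng3 (0.926), Peg3 (0.888) and Cxcl10 (0.885). For Gap43 they were Vgf (0.973), Cntn1 (0.971) and Atp2b2 (0.969). Tubb3 had r = 0.806 with Stmn2 and 0.769 with Map1b but 0.01 with Gap43. These are descriptions over class means of log2 levels that share the same 4 sections, and the pattern of Gap43 was that of genes of mature neurons, while Dcx, a neuroblast gene, was among the nearest to Tubb3.

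Astrocyte-like cells had less of the 4 genes than the mean of the mature neuron classes, although single classes crossed. Mean Tubb3 was 16.2 in oligodendrocyte-like against 12.9 in D1 MSN-like cells, and mean Stmn2 was 20.7 in astrocyte-like against 9.72 in D2 MSN-like cells. By edgeR all 4 were higher in the mean of the mature neuron classes than in astrocyte-like cells, by 4.12-fold for Map1b, 3.94-fold for Stmn2, 2.79-fold for Tubb3 and 2.35-fold for Gap43 (adjusted p of 2.47e-16 for Gap43), with 48% of genes higher and 39.7% lower in the background. Of the 17 growth genes 14 were higher and 2 lower in these neurons (median 0.90, against 0.24 over all genes), led by Ezr, a linker of membrane and actin, which was lower (log2 -4.20), and by Sorbs2 (3.15), an adaptor of the actin cytoskeleton, and Plppr4 (3.10), which were higher. Of the 20 reference genes, 20 were higher (median 2.31).

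The level of neuronal genes measured in astrocyte-like cells moved with the place of the cell. The summed level of the 20 reference genes was 528 to 572 in astrocyte-like cells of the whole sections. It was 589 to 634 for astrocyte-like cells in the striatum-like zone and 137 to 187 in the white matter-like zone, where at least 50% of the cells within 150 µm were oligodendrocyte-like. Stmn2 in astrocyte-like cells was 18.4 to 22.5 in all, 4.04 to 6.68 in the striatum-like and 1.61 to 3.51 in the white matter-like zone. Gap43 in astrocyte-like cells was 13.7 to 16.1 in the striatum-like and 1.04 to 4.84 in the white matter-like zone. How much of the glial signal came from neuronal RNA next to these cells was not tested.

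Tubb3 differed most of the 4 genes between oligodendrocyte-like and astrocyte-like cells. Over the whole sections it was at 13.3, 17.9, 18.5 and 14.96 in oligodendrocyte-like cells and at 7.30, 9.87, 8.91 and 7.59 in astrocyte-like cells. The difference was -1.02 on the log2 scale (astrocyte-like over oligodendrocyte-like, SE 0.17, adjusted p = 3.92e-07 by edgeR). Map1b was also lower in astrocyte-like cells (log2 -0.34, SE 0.11, adjusted p = 0.00452), a call lost per cell volume (adjusted p = 0.189) and at resolution 1 (0.019, adjusted p = 0.872). With 2 of 4 members lower, the background was 31.9% of genes lower and 47% higher. Of the 17 growth genes 8 were higher and 7 lower (median 0.18, against 0.22 over all genes), with Slain1 (log2 -5.34), which promotes microtubule growth, the farthest, and of the 20 reference genes 7 were higher and 4 lower. Stmn2 (log2 -0.10, SE 0.15, adjusted p = 0.544) and Gap43 (0.21, SE 0.11, adjusted p = 0.0794 by edgeR) missed the threshold.

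In the white matter-like zone, where neuronal transcripts were fewest, the contrast in Tubb3 widened. Oligodendrocyte-like cells there had 7.49, 7.45, 12.9 and 9.48 in Young 1, Young 2, Aged 1 and Aged 2, from 142, 147, 404 and 375 transcripts. Astrocyte-like cells had 1.54, 0.807, 1.74 and 0.701, from 3, 1, 5 and 2 transcripts in 81, 66, 201 and 152 cells. The highest 95% Poisson limit of an astrocyte-like value was 4.504 and the lowest limit of an oligodendrocyte-like value was 6.30, so the intervals, which cover counting error only, did not meet. By edgeR the log2 difference was -3.65 (SE 0.41, adjusted p = 1.5e-06), and in the striatum-like zone -1.91 (SE 0.10, adjusted p = 3.27e-12). In the striatum-like zone 3 of 4 members were lower in astrocyte-like cells (Tubb3, Map1b and Stmn2), against 35.2% of genes lower and 32.9% higher. Map1b went the same way (-2.19, SE 0.21, adjusted p = 1.98e-07 in the white matter-like zone), and so did Gap43 there (-1.08, SE 0.36, adjusted p = 0.0155 by edgeR), whose sign was the opposite over the whole sections. Stmn2 did not pass the test in the white matter-like zone (-0.87, SE 0.58, adjusted p = 0.201 by edgeR). With 3 of 4 members lower in astrocyte-like cells in that zone, the background was 34.4% of genes lower and 34% higher. The summed level of the 20 reference genes there was 250 to 307 in oligodendrocyte-like and 137 to 187 in astrocyte-like cells. Per 100 reference transcripts, Tubb3 was at 2.46 to 5.16 against 0.42 to 1.27 and Map1b at 10.1 to 17.1 against 6.62 to 9.91. In this measure Gap43 (1.26 to 1.56 against 0.76 to 2.59) and Stmn2 (0.75 to 1.08 against 0.86 to 2.11) overlapped between the 2 classes.

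The ratio of 2 transcripts within a class does not depend on the scaling. Oligodendrocyte-like cells held 65.6 to 90.8 Tubb3 transcripts per 100 Stmn2 transcripts over whole sections, 177 to 312 in the striatum-like and 229 to 493 in the white matter-like zone. Astrocyte-like cells held 33.8 to 48.4 over whole sections, 57.9 to 118 in the striatum-like and 20 to 100 in the white matter-like zone, the last from 1 to 5 Tubb3 transcripts per section. Over whole sections the ratio in oligodendrocyte-like cells thus lay above that in astrocyte-like cells, but it overlapped with MSN-like (55.7 to 73.5), neuroblast-like (49.6 to 77.0), Rassf9-rich (59.1 to 88.0) and Top2a-rich cells (35.0 to 91.0). The ratio was 12.2 to 17.4 in neurons without GABA or spiny markers, 16.6 to 25.6 in GABA neuron-like cells and 18.7 to 24.9 in OPC-like cells. It was 100.2 to 151 in D2 MSN-like cells, whose Stmn2 level in the striatum-like zone overlapped with that of endothelial-like and oligodendrocyte-like cells. In one oligodendrocyte-like cluster, led by Cldn11 and Mal, Tubb3 was at 8.8, 10.9, 14.8 and 10.6 with Stmn2 at 4.1, 3.1, 3.1 and 3.5.

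**Figure D2:**
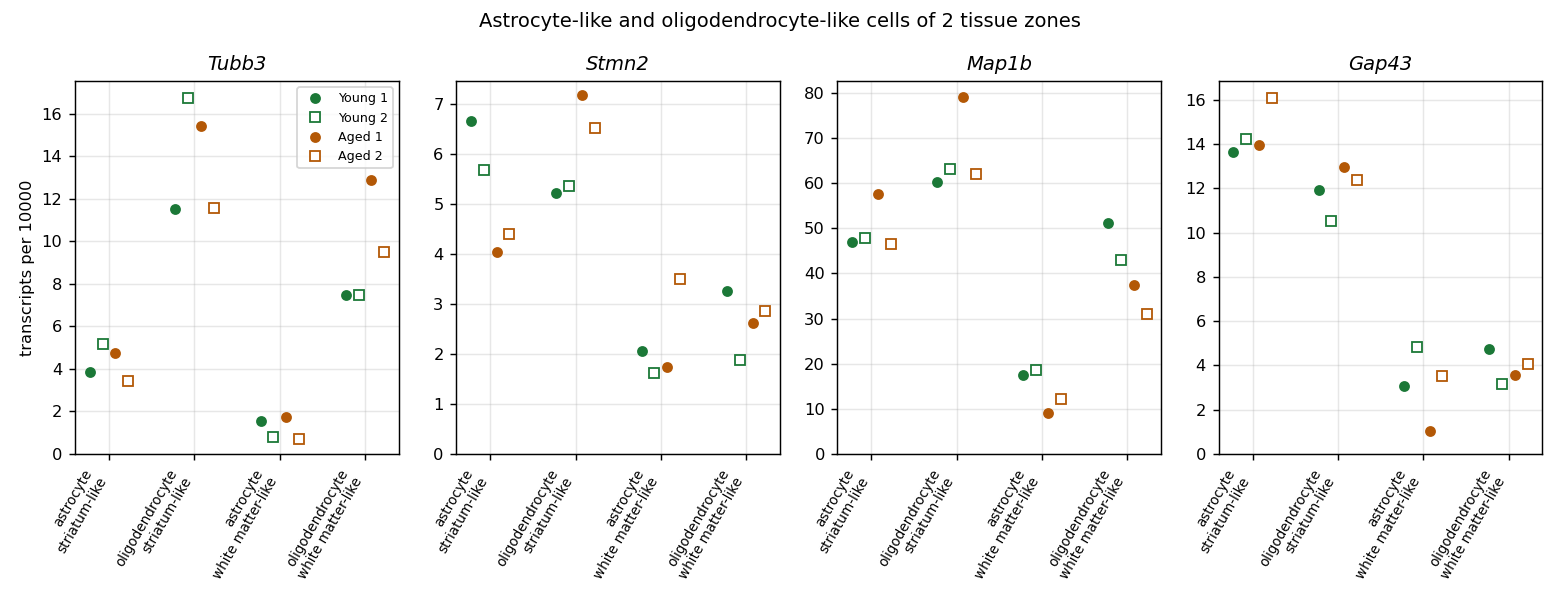
Transcripts per 10000 of the 4 genes in astrocyte-like and oligodendrocyte-like cells of the striatum-like and the white matter-like zone, 1 point per section and axes from 0. Tubb3 is higher in oligodendrocyte-like cells in both zones (7.45 to 12.9 against 0.701 to 1.74 in the white matter-like zone), while the Stmn2 values of the 2 classes overlap.

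Tubb3 and Map1b, the pair higher in oligodendrocyte-like than in astrocyte-like cells over the whole sections, are shown with the 250 bases before their RefSeq start sites in GRCm38.p6. These are the members with a window in the promoter table used here, which holds none for Stmn2 and Gap43. Capitals mark each GC box (GGGCGG, searched on both strands), and the windows run 5′ to 3′ on the strand of the gene, chr8:123411303-123411552 on the plus strand for Tubb3 and chr13:99516603-99516852 on the minus strand for Map1b.
Tubb3: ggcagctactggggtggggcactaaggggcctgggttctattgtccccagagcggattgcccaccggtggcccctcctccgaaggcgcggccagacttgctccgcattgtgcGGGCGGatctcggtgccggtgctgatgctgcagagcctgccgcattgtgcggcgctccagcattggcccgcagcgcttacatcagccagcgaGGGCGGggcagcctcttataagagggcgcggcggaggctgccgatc
Map1b: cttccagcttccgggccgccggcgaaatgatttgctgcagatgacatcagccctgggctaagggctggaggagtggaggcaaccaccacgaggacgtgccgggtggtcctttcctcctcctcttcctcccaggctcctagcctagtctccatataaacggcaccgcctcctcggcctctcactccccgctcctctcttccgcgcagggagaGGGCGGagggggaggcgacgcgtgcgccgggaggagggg
The Tubb3 window has 68.0% G and C, 2 GC boxes, 1 CCAAT motif and 0 E-boxes (CANNTG, both strands). The Map1b window has 66.4% G and C, 1 GC box, 0 CCAAT motifs and 1 E-box. Among 32817 RefSeq promoter windows of the same length, 32.7% hold a GC box, 33.8% a CCAAT motif and 66.2% an E-box, and the median G and C content is 52.4%. A match describes the letters and is no evidence of binding.

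Over the whole sections OPC-like cells, the precursors of oligodendrocytes, had mean levels of all 4 genes above those of both MSN classes and of the other glia. Stmn2 in OPC-like cells was at 133, 142, 99.96 and 133 and Map1b at 322, 353, 349 and 314, with Aged 1 the lowest section for Stmn2. Inside the striatum-like zone only Tubb3 and Stmn2 kept means above both MSN classes. Mean Map1b in that zone was 171 in OPC-like, 213 in D1 MSN-like and 174 in D2 MSN-like cells. Mean Gap43 was 22.6, 28.4 and 27.7 in the same order. By edgeR all 4 genes were higher than in astrocyte-like cells (Stmn2 4.52-fold, Map1b 2.99-fold, Tubb3 2.37-fold, Gap43 1.77-fold), in a contrast where 41.5% of genes were higher and 35% lower. The Gap43 call was lost at resolution 1 (adjusted p = 0.366) and when cells with 3 or more markers of another class were left out (adjusted p = 0.297). The reference genes for neurons also stood at 1878 to 2101 in OPC-like cells, and 19 of 20 were higher than in astrocyte-like cells, as were 15 of the 17 growth genes, with 1 lower. In the white matter-like zone, in 47 to 55 cells per section, Map1b (log2 2.41, SE 0.22), Gap43 (2.11, SE 0.39) and Tubb3 (1.58, SE 0.56, adjusted p = 0.0222) were higher, and Stmn2 missed the threshold (0.45, SE 0.74, adjusted p = 0.6 by edgeR). The Tubb3 value there rests on 5, 2, 3 and 11 transcripts. In that zone the background was 34% of genes higher and 34.8% lower, and the reference genes were at 383 to 699. All OPC-like cells came from 1 cluster, and glial clusters were not left out for neuronal markers. Relative to the highest cluster, the median of the neuron markers was 0.518 in it, against 0.128 in the largest astrocyte-like cluster. The part of neuronal RNA in the OPC-like values was not tested.

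The change from 2 to 18 months was tested in each class with at least 200 cells in every section, and in neuroblast-like cells as an addition. In the mature neuron classes 0 of the 4 genes passed an adjusted p of 0.05 by edgeR, where the background was 0% of 383 genes in each class. At an unadjusted p under 0.05, edgeR had 24 genes in neurons without GABA or spiny markers, 27 in GABA neuron-like cells, 21 in MSN-like, 23 in D1 MSN-like and 17 in D2 MSN-like cells. Of the 4 genes, 1 was among them (Tubb3 in GABA neuron-like cells). DESeq2 called 1 gene in neurons without GABA or spiny markers, 1 in GABA neuron-like cells and 0 in the MSN classes, and 0 of these were among the 4.

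**Figure D3:**
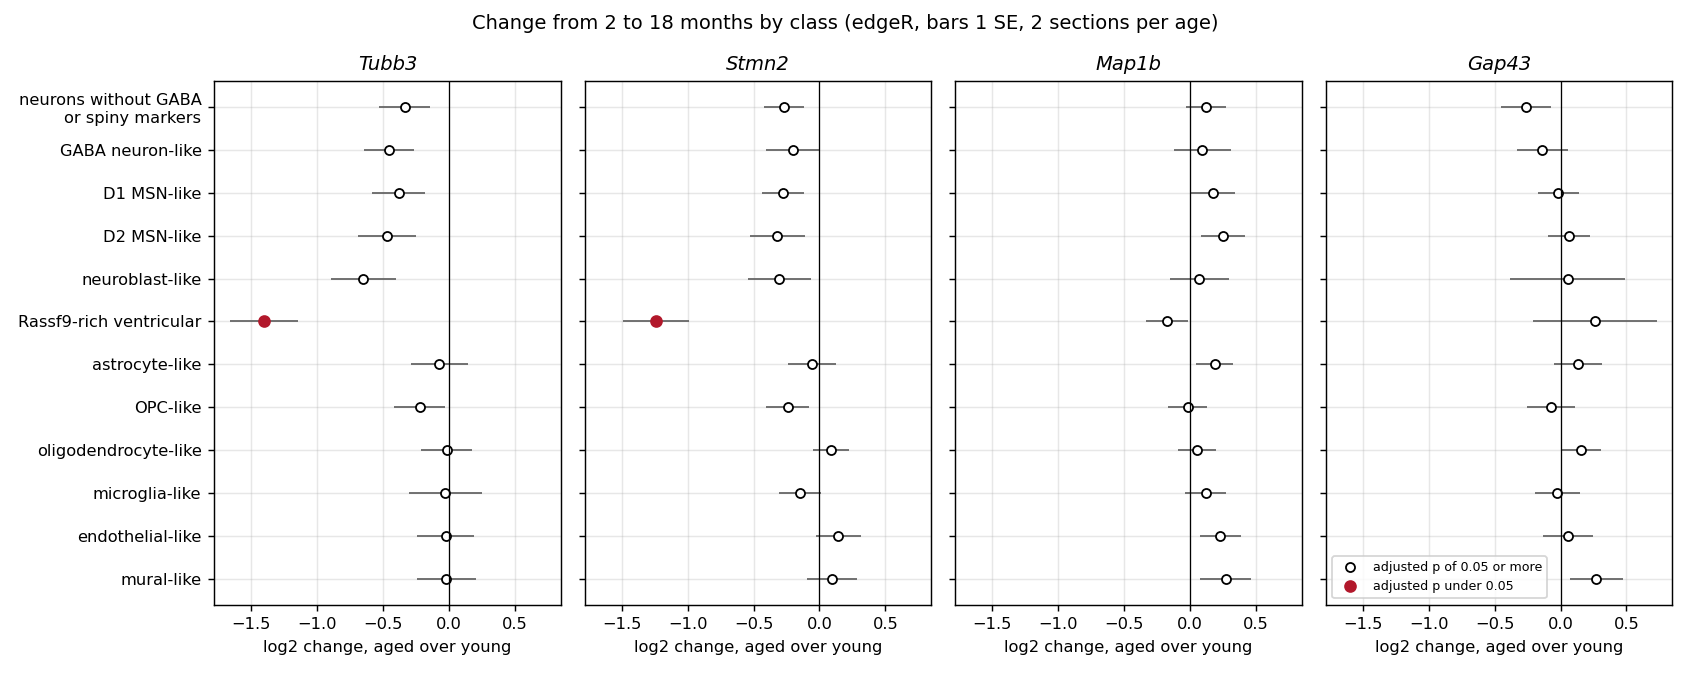
Log2 change of the 4 genes from young to aged sections by class (edgeR estimate, bars 1 SE, 2 sections per age), with red points where the adjusted p was under 0.05. Only Tubb3 and Stmn2 in Rassf9-rich ventricular cells pass, at -1.40 and -1.24, while the neuron classes lie between -0.47 and 0.25.

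The estimates in neurons missed the adjusted threshold, but those of Tubb3 and Stmn2 leaned one way. Tubb3 estimates ran from -0.47 (SE 0.22, D2 MSN-like) to -0.33 (SE 0.19, neurons without GABA or spiny markers) on the log2 scale. Tubb3 went from 40.9 and 55.3 to 35.0 and 34.0 in GABA neuron-like cells (log2 -0.45, SE 0.19, adjusted p = 0.649 by edgeR). In MSN-like cells it went from 12.2 and 16.9 to 10.7 and 10.7 (log2 -0.42, SE 0.22, adjusted p = 0.844 by edgeR). Young 2 was the highest section in all 5 neuron classes, and both aged sections lay below both young ones. Stmn2 in neurons without GABA or spiny markers went from 245 and 237 to 183 and 217 (log2 -0.27, SE 0.15, adjusted p = 0.658 by edgeR). Here Aged 1, the section with the fewest transcripts per cell, was the lowest in each of the 5 neuron classes. Map1b had estimates between 0.09 and 0.25, with Aged 1 the highest section, and Gap43 between -0.26 and 0.07, with young and aged sections overlapping in all 5.

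Of the 12 classes tested, both aged sections lay below both young ones for Tubb3 in 7 and for Stmn2 in 7. They lay above for Tubb3 in 0 and for Stmn2 in 1 (oligodendrocyte-like cells, 19.3 and 19.7 against 21.9 and 22.8). The 7 classes were the same for both genes, namely neurons without GABA or spiny markers, GABA neuron-like, MSN-like, D1 MSN-like, D2 MSN-like, Rassf9-rich ventricular and OPC-like cells. In these 7 classes, in that order, 18.8, 18, 19.3, 20.1, 18.3, 25.1 and 19.3% of all genes tested were lower in both aged sections. D1 and D2 MSN-like cells are subsets of the MSN-like cells, and all classes come from the same 4 sections, so the 7 are not independent. Map1b was higher in both aged sections in 5 classes and lower in 1, and Gap43 higher in 1 (oligodendrocyte-like cells) and lower in 0. The 5 classes of Map1b were MSN-like, D2 MSN-like, astrocyte-like, endothelial-like and mural-like cells, where 15.7, 13.1, 20.2, 19.3 and 16.2% of all genes were higher in both aged sections. That share was 32.6% in oligodendrocyte-like cells, 19.6% in neurons without GABA or spiny markers, 16.4% in GABA neuron-like, 13.8% in D1 MSN-like, 24.7% in Rassf9-rich, 23% in OPC-like and 23.6% in microglia-like cells. The share lower was 20.5% in astrocyte-like, 18.8% in oligodendrocyte-like, 17% in microglia-like, 21.4% in endothelial-like and 25.3% in mural-like cells.

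In glia and vascular cells 0 of the 4 genes passed by edgeR, and at an unadjusted p under 0.05 there were also 0 of the 4 by edgeR and 0 by DESeq2. Over all genes that count was 41 of 381 by edgeR and 26 by DESeq2 in astrocyte-like, 73 of 383 and 68 in oligodendrocyte-like, 52 and 47 in OPC-like, 34 of 352 and 24 in microglia-like, 39 and 32 in endothelial-like, and 36 and 35 in mural-like cells. The background was 1.57% of genes in astrocyte-like, 3.66% in oligodendrocyte-like, 2.09% in OPC-like, 0.568% in microglia-like, 2.35% in endothelial-like and 0.783% in mural-like cells. Tubb3 changed by -0.07 (SE 0.22) in astrocyte-like and by -0.02 (SE 0.19) in oligodendrocyte-like cells on the log2 scale over the whole sections. The white matter-like zone held 600 and 719 oligodendrocyte-like cells in the young and 1857 and 1772 in the aged sections. Their Tubb3 level was 7.49 and 7.45 in the young and 12.9 and 9.48 in the aged sections. Map1b in these cells went the other way, from 51.2 and 42.9 to 37.4 and 30.9, and Stmn2 and Gap43 overlapped between the ages. Astrocyte-like Tubb3 values of that zone overlapped between the ages. The change with age in that zone was not tested, and the share of all genes parted in this way there was not counted. Growth genes did change in oligodendrocyte-like cells, where 2 of 17 were lower in aged sections by edgeR and 0 higher (median -0.16). They were Marcks (41.1 and 52.8 against 23.8 and 27.0, log2 -0.997, adjusted p = 0.022), a substrate of protein kinase C at the membrane, and Marcksl1 (11.6 and 10.2 against 5.55 and 6.31, log2 -0.98, adjusted p = 0.022 by edgeR). Of the reference genes, 1 was higher in oligodendrocyte-like and 1 in astrocyte-like cells, in both cases Snhg11, a neuronal long non-coding RNA (log2 1.39 and 1.52). In the neuron, OPC-like, microglia-like, endothelial-like and mural-like classes 0 of the 17 and 0 of the 20 genes passed by edgeR, where the edgeR counts at an unadjusted p under 0.05 over all genes ranged from 17 to 52 and DESeq2 counts from 23 to 47.

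Rassf9-rich ventricular cells were the class in which members changed. Tubb3 was at 15.9 and 16.97 in the young and at 6.48 and 5.92 in the aged sections, from 132, 139, 30 and 39 transcripts in 255, 296, 236 and 274 cells. Stmn2 was at 23.0 and 19.3 in the young and at 7.56 and 10.01 in the aged sections. By edgeR Tubb3 fell by 1.40 (SE 0.26, adjusted p = 0.0117) and Stmn2 fell by 1.24 (SE 0.25, adjusted p = 0.017) on the log2 scale, with 7.27% of 275 genes called in the background. Map1b (81.4 and 88.5 against 76.5 and 73.7, adjusted p = 0.579) and Gap43 (5.17 and 2.08 against 4.75 and 3.94, adjusted p = 0.805) did not pass by edgeR. Of the 17 growth genes 2 fell and 0 rose by edgeR, namely Dpysl3 (log2 -1.01, adjusted p = 0.0462) and Marcks (log2 -0.76, adjusted p = 0.0462), and of 19 reference genes tested 1 rose, Snhg11 (log2 2.32).

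Neuroblast markers moved with these 2 genes. Their summed level in Rassf9-rich cells was 327 and 346 in the young and 121 and 158 in the aged sections. Dcx (log2 -1.25), Sox11 (-1.39), Dlx6os1 (-1.36) and Ccnd2 (-1.22) fell by edgeR, and Sox4 missed the threshold (-0.86, adjusted p = 0.183), so 4 of 5 passed. When cells with 2 or more of the 5 markers were left out, 101, 128, 171 and 177 cells remained. Tubb3 was then at 1.54, 1.63, 2.54 and 0.903, from 3, 4, 7 and 3 transcripts, too few for the test. Stmn2 was at 5.14, 2.04, 4.72 and 4.21 (log2 0.29, SE 0.56, adjusted p = 0.914 by edgeR), so its decline was no longer measured. Both calls also ended without Aged replicate 2 (Tubb3 -1.35, adjusted p = 0.116; Stmn2 -1.49, adjusted p = 0.109 by edgeR), with the estimates near their size over all 4 sections.

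**Figure D4:**
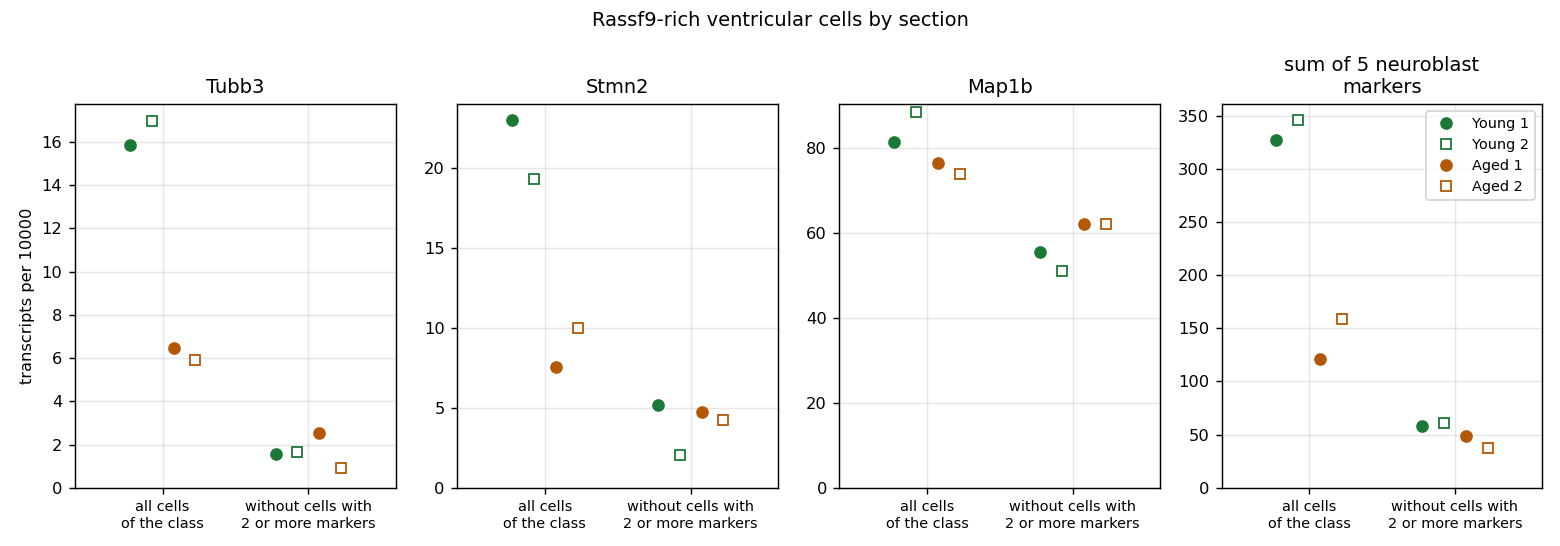
Transcripts per 10000 of Tubb3, Stmn2, Map1b and the sum of 5 neuroblast markers in Rassf9-rich ventricular cells, 1 point per section and axes from 0, for all cells of the class and without cells that held 2 or more of the markers. Tubb3 and Stmn2 are lower in both aged sections in all cells, together with the markers (327 and 346 against 121 and 158), while without marker-bearing cells young and aged sections overlap in Tubb3 and Stmn2 and the marker sum is 58.1 and 60.8 against 49.1 and 37.3.

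Neuroblast-like cells themselves were fewer in the aged sections, with 352 and 392 cells in the young and 125 and 148 in the aged ones. Such numbers depend on the tissue in each section, which differed. The white matter-like zone held 925 and 1065 cells in the young and 2569 and 2461 in the aged sections. The Tubb3 level of neuroblast-like cells was 102 and 134 in the young and 75.8 and 85.1 in the aged sections (log2 -0.65, SE 0.25, unadjusted p = 0.0221, adjusted p = 0.22 by edgeR), with 2.53% of 198 genes called in the background. Without Aged replicate 2 both Tubb3 (-0.84, adjusted p = 0.0163) and Stmn2 (-0.67, adjusted p = 0.0416 by edgeR) passed, with 1 aged section left that was assumed to vary like the young ones. Stmn2 stood at 168 and 174 against 123 and 172, so the groups were parted by 1 aged section (adjusted p = 0.597 by edgeR over all 4). In the same cells 0 of 17 growth genes passed by edgeR, and 1 of 18 reference genes tested rose, Snhg11 (log2 1.96). Map1b (0.07, SE 0.22) and Gap43 (0.05, SE 0.43) had estimates near 0 on the log2 scale. Top2a-rich ventricular cells, too few in Aged 1 (16 cells) for the test, had Tubb3 at 83.0 and 104 in the young and 50.4 and 61.2 in the aged sections.

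Whether the change with age differed between classes was tested as an interaction in 3 pairs of classes. By edgeR 0 of the 12 tests of the 4 genes passed, where the background was 0% of genes for neurons without GABA or spiny markers against MSN-like cells, 0% for neuroblast-like against MSN-like cells and 0.261% for astrocyte-like against MSN-like cells. DESeq2 likewise called 0 of the 12. At an unadjusted p under 0.05 there were 2, namely Gap43 in neurons without GABA or spiny markers minus MSN-like cells (-0.34, SE 0.15, adjusted p = 0.54) and Tubb3 in astrocyte-like minus MSN-like cells (0.38, SE 0.13, adjusted p = 0.244 by edgeR). For Tubb3 the neuroblast-like change minus the MSN-like change was -0.20 (SE 0.21, adjusted p = 0.817 by edgeR), and neuroblast-like cells were tested against no other mature class.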

How the data were processed

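The authors imaged 383 genes by MERFISH (Vizgen) in 4 frozen coronal striatal sections and deposited, per the file headers, whole-number transcript counts per segmented cell, with cell volume and centre as further signal columns.

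Cells with at least 10 genes and 50 µm³ were kept, as in the study. Cells of all sections were clustered together (15 principal components, 20 neighbours, Louvain, resolution 2) without the 4 genes and 17 growth genes, and clusters were named from marker lists. Doublets were not called, and clusters with markers of several lineages were left out instead. Glial clusters were screened in this way for markers of other glial and vascular lineages only. They were not left out for neuronal markers below the level that names a neuron class (0.55 of the highest cluster). No cell name was shared between sections. Counts were summed per class and section and tested with edgeR 4.0.16 (quasi-likelihood, TMM, filterByExpr, Benjamini-Hochberg over all genes, threshold 0.05) in R 4.3.3, with DESeq2 1.42.0 and limma 3.58.1 as alternatives. Contrasts between classes had the section as a block. Means are over sections, and intervals cover counting error only. Tested on simulated counts for the age change in MSN-like cells, edgeR called 81% of 200 changed genes, and 97.1% of those changed at least 2-fold. The share called at the small age estimates of the 4 genes in neurons was not tested. The members and lists were chosen with earlier results of these data known. Of each list, up to 4 genes are named, those with the largest change past the threshold.

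Kept transcripts per section ranged from 18765491 to 36035355, and replicate numbers were checked and did not pair sections (correlation of deviations -0.43 to 0.01).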

Additional observations from a re-analysis of the deposited data

Results flagged for a closer look

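Stmn2 and Map1b leaned in opposite directions with age across classes, although 0 of these changes in neurons and glia passed the test by edgeR. For Stmn2 the pair of aged sections was lower than the pair of young ones in 7 classes and higher in 1 class, while Map1b was lower in 1 class and higher in 5 classes. Of all genes tested, 18 to 25.1% were lower in both aged sections in those 7 classes. The share higher was 13.1 to 20.2% in the 5 classes of Map1b and 32.6% in oligodendrocyte-like cells, where Stmn2 was higher. Map1b was lower in Rassf9-rich cells, where 25.1% of genes were. The difference between the 2 genes was not tested. The classes share 4 sections and are not independent, and D1 and D2 MSN-like cells are subsets of the MSN-like cells.

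Among the cells left out as mixed, a cluster led by Cxcl1 had a Map1b level of 841.4 per 10000 transcripts, above that of every named class. It held 1049 cells, of which 873 came from Young 1, with a median of 159 transcripts per cell, and it enters no comparison.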

How the results depend on the processing

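In simulated counts for the age change in MSN-like cells, edgeR called 81% of the changed genes and 97.1% of those changed at least 2-fold. Genes changed less than 2-fold were thus called less often. The age estimates of the 4 genes in the neuron classes were small (log2 -0.47 to 0.25). How often edgeR would call a gene with a change of that size was not tested. Over the 12 classes with at least 200 cells per section, neuroblast-like cells not counted, the number of age changes called among the 4 genes was 2 and stayed at 2 with DESeq2, limma, no TMM factors, per cell volume, no filter on low counts, mixed cells kept, neuroblast marker-bearing glia left out and resolution 1. The replicate block gave 2 as well, and the crossed replicate block gave 2. It was 0 at the study's resolution of 0.08, 0 with cells of at least 100 transcripts and 0 in the striatum-like zone alone, but Rassf9-rich cells, which hold both calls, were not tested in these 3 settings. It was 3 without cells holding 3 or more markers of another class, the addition being Map1b in OPC-like cells. Leaving out 1 section at a time gave 0 to 2, with 0 without Aged replicate 2, where Tubb3 and Stmn2 in neuroblast-like cells passed instead. The cause was not tested.

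Of 20 level differences, those of OPC-like cells not counted, 15 were called, and 15 to 17 under each alternative, leaving out 1 section included. In OPC-like against astrocyte-like cells 4 of 4 were called, and Gap43 kept its call in 10 of 12 settings. Stmn2 in neuroblast-like against mature neurons turned to -0.21 per cell volume, -0.35 at resolution 1 and -0.20 without Young replicate 2 (0.72 at most when 1 section was left out), together with the shift of the median gene. In astrocyte-like against oligodendrocyte-like cells, Stmn2 turned to 0.47 and Map1b to 0.019 at resolution 1, and Gap43 to -1.08 in the white matter-like zone. Stmn2 in Rassf9-rich cells turned to 0.29 without cells holding 2 or more neuroblast markers. Of 859 age alternatives 95 changed sign, of 280 level alternatives 16 and of 88 interaction alternatives 19. Age changes and interactions that missed the threshold in most settings say nothing about stability. The level comparisons by zone and without TMM factors, resolution 1, cells left out for 3 or more markers of another class, ventricular cells left out for neuroblast markers and the crossed block were chosen after seeing the data.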
